A study of Mus musculus with 4 samples.

Results

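This account covers the N6-methyladenosine (m6A) peaks of 9 genes for splicing regulators of the heart, Rbm20, Rbm24, Rbfox1, Rbfox2, Mbnl1, Mbnl2, Celf1, Celf2 and Qk, taken as every listed peak that carries one of these gene names. Of the 9 genes, 8 had a peak, out of 12182 genes with a peak in all. They held 18 of the 21179 peaks of the Wtap-CKO list and 17 of the 20766 peaks of the Wtapflox/flox list. The hearts came from mice 4 days old. The Wtap-CKO group is, by its genotype label, the knockout of Wtap, with RNA pooled from 8 mice. The Wtapflox/flox group carries the floxed gene and is the control, with RNA pooled from 7 mice. The titles of the knockout samples read WBKO instead, and the genotype label was used here. The sources used here do not name the promoter that drives the deletion or the heart cells in which it acts. Each genotype had 1 IP library, made with an anti-m6A antibody from RNA fragments of about 100 nt, and 1 input library, and the authors called 1 peak list from each such pair. Neither genotype has a replicate, so differences between the lists have no replicate check and no test between genotypes was made.

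Wtap belongs to the enzyme complex that writes m6A on nascent messenger RNA, a mark that reader proteins bind and that is known to affect splicing, decay and translation. The 9 genes encode RNA-binding proteins that choose exons in muscle. RBM20 represses exons of titin and of calcium-handling transcripts, and mutations in its human gene cause dilated cardiomyopathy. Muscleblind-like (MBNL) and CELF proteins act on many of the same exons in opposite directions as the heart matures after birth. RBFOX proteins and quaking bind short motifs in introns beside regulated exons, and RBM24 promotes the inclusion of muscle-specific exons.

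Some terms hold for all that follows. A fold is the authors' value of IP over input for a peak within its own list, and log10 q is the authors' false discovery rate for that peak, where a more negative value is stronger. Peaks of the 2 lists counted as shared, or as counterparts, where they had 1 or more exonic bases in common on the same strand. Positions are those of mouse build GRCm39. All peaks lie in exons of the named gene as the authors' lists give them, and whether they fall in coding sequence or a UTR was not analysed here. In a whole heart, fewer cells of a type and less RNA per cell cannot be told apart, and the depth of the libraries is unknown, since the lists hold no read counts.

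Most of these peaks were found in both genotypes. In the Wtap-CKO list, 4 of 18 peaks (22.2%, exact 95% interval 6.41 to 47.6%) had no control counterpart, against 24.5% of all knockout peaks. In the Wtapflox/flox list, 2 of 17 peaks (11.8%, 1.46 to 36.4%) had no knockout counterpart, against 23.9% of all control peaks. Both intervals include the value over all peaks and cover counting error only. Of the 8 members with a peak, 7 had peaks in both genotypes, against 77.6% of all genes with a peak. Celf2 was listed in the knockout only, as were 11.9% of all genes with a peak. No member was in the control list only (10.5% of all genes with a peak), and Rbfox1 was in neither list.

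**Figure D1:**
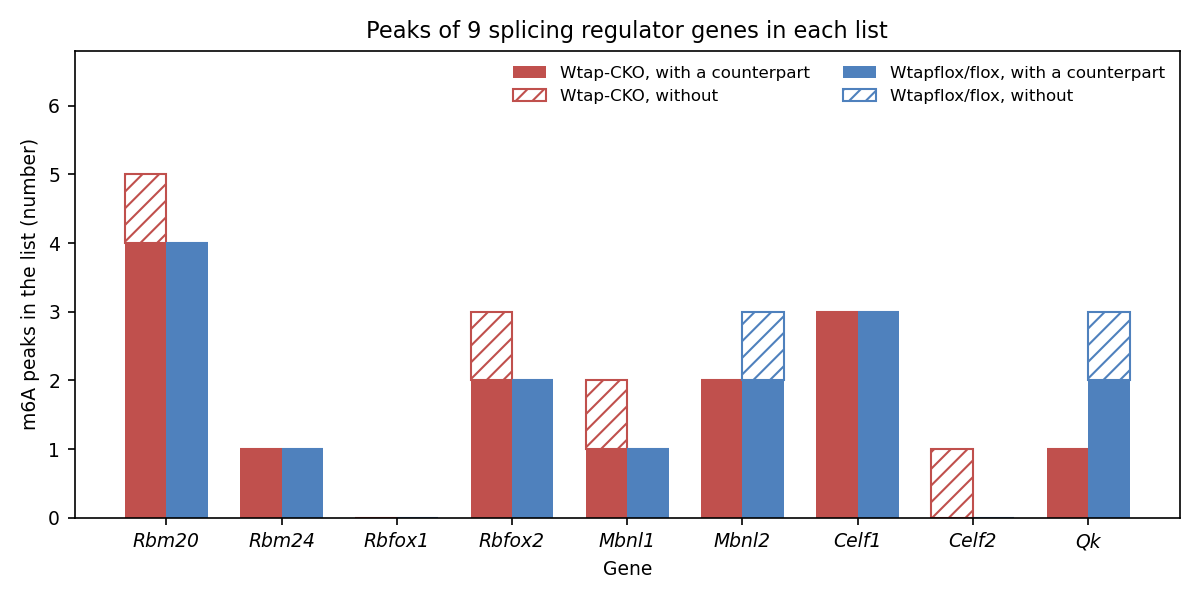
Number of m6A peaks of each gene (y axis) in the Wtap-CKO list (red, left bar) and the Wtapflox/flox list (blue, right bar). Filled parts have a counterpart and hatched parts do not. Rbm20 has the most peaks in both lists (5 and 4), and Rbfox1 has none.

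The peaks without a counterpart had a larger q than most of the others. Their log10 q lay between -7.22 and -2.02 for the 4 knockout peaks and was -9.19 and -4.98 for the 2 control peaks. The shared peaks had a median log10 q of -30.2 in the knockout list and -32.3 in the control list, with ranges of -220 to -7.66 and of -308 to -2.14. Over all peaks the median log10 q was likewise nearer to 0 without a counterpart, at -3.2 against -11.9 for shared peaks in the knockout list and -3.73 against -13.3 in the control list. The fold showed no such gap in the knockout list, where the members' median was 4.98 without a counterpart and 5.03 with one. In the control list it was 1.78 without one, over 2 peaks, and 6.58 with one, over 15 peaks. Over all peaks the median fold was 6.81 without and 7.16 with a counterpart in the knockout list. In the control list it was 5.61 and 7.62 over all peaks. At q at or under 1e-10, a limit chosen after the data were seen that lies just beyond the strongest unmatched member peak (log10 q -9.19), 0 of 12 knockout peaks and 0 of 12 control peaks lacked a counterpart. The choice of this limit fixed both counts at 0, so they are no estimate of a share and no interval is given for them. Over all peaks of that strength, 4.04% in the knockout list and 8.72% in the control list lacked one.

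**Figure D2:**
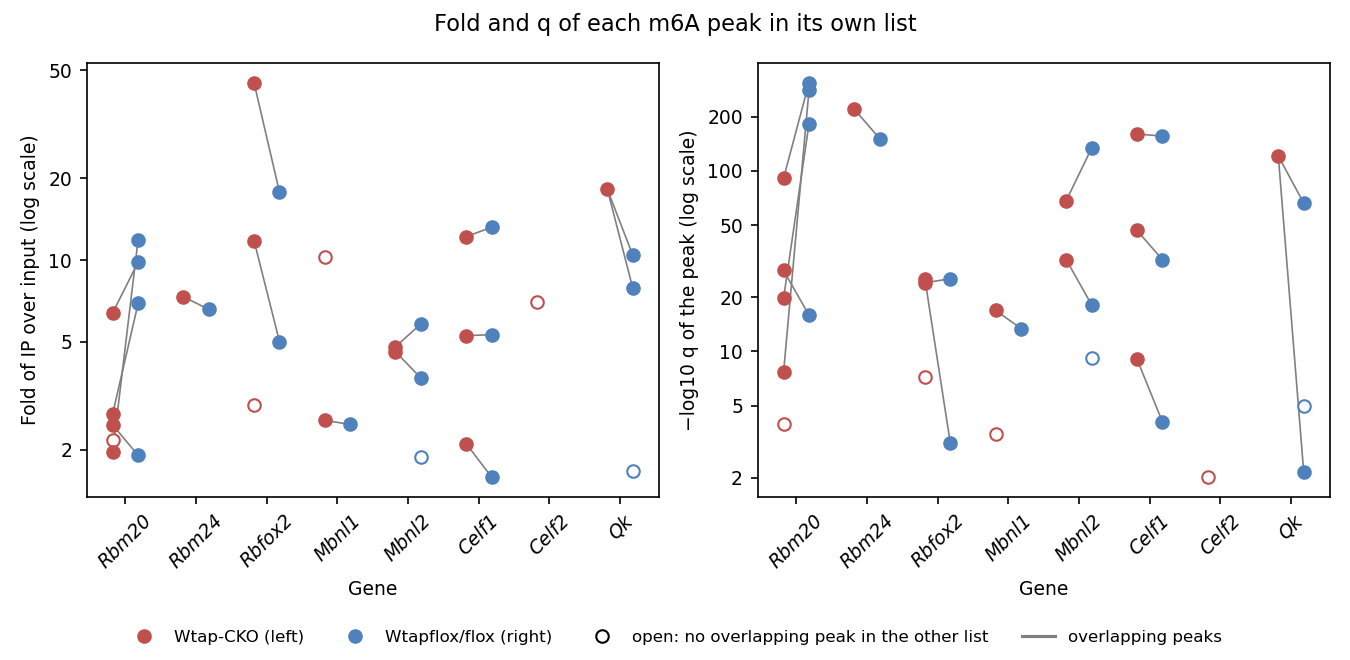
Fold of IP over input (left panel) and −log10 q (right panel) of every peak of the 8 genes, both on log axes, with Wtap-CKO peaks in red at the left and Wtapflox/flox peaks in blue at the right of each gene. Grey lines join overlapping peaks and open circles have no counterpart. Open circles sit low in the right panel, at a log10 q between -9.19 and -2.02.

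Rbm20 (ENSMUSG00000043639, chromosome 19, plus strand) held the most peaks of the group, 5 in the Wtap-CKO list and 4 in the Wtapflox/flox list. All 4 control peaks overlapped a knockout peak, each with a single partner. At the upstream pair, the knockout peak spanned 53802330 to 53802509 with fold 1.96 (log10 q -7.66), and the control peak spanned 53802090 to 53802569 with fold 11.9 (log10 q -279). At the next pair, the knockout peak spanned 53831757 to 53840049 with fold 6.39 (log10 q -91), and the control peak spanned 53831667 to 53840198 with fold 9.83 (log10 q -308). These peaks ran over the same 3 exonic blocks, of which the middle, 87 bases long, was covered whole in both lists. The third pair, over 2 blocks, spanned 53847924 to 53852700 in the knockout, with fold 2.72 (log10 q -19.7), and 53847924 to 53852819 in the control, with fold 6.92 (log10 q -182). The downstream pair spanned 53854345 to 53854554 in the knockout, with fold 2.47 (log10 q -28.1), and 53854375 to 53854554 in the control, with fold 1.91 (log10 q -15.9).

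The order of the Rbm20 peaks thus differed between the lists. Among the 4 pairs, the upstream one had the highest fold in the control list and the lowest in the knockout list. In the knockout list, 3.59% of all peaks had a lower fold than this peak, and in the control list 71.7% of all peaks had a lower fold than its partner. Of 224 genes with 4 such single-partner pairs, 13 (5.8%) had their highest control pair at the bottom of the knockout order, Rbm20 among them. In 117 of the 224 (52.2%) the highest pair was not the same in both lists. This comparison was chosen after the values of Rbm20 were seen.

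**Figure D3:**
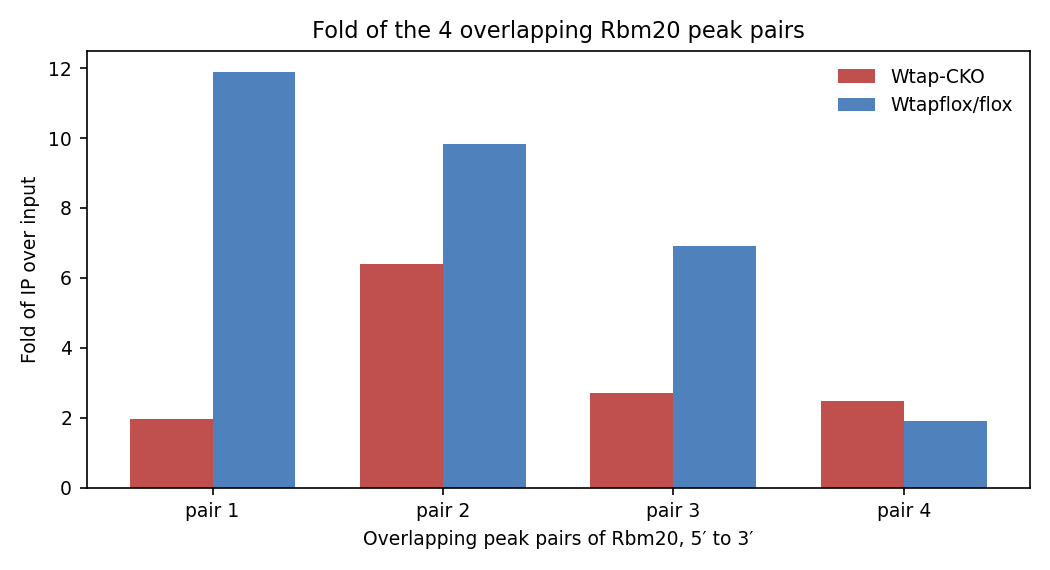
Fold of IP over input (y axis) of the 4 overlapping peak pairs of Rbm20 from 5′ to 3′ (x axis), Wtap-CKO in red at the left and Wtapflox/flox in blue at the right. The first pair has folds of 1.96 and 11.9, and the last has 2.47 and 1.91. Each bar is 1 value of the authors without an error.

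The extent of the Rbm20 peaks differed as well. The 3 upstream knockout peaks lay wholly inside their control partners and covered 37.5%, 81.4% and 63.9% of those partners' exonic bases, from 5′ to 3′. At the downstream pair it was the control peak that lay inside the knockout peak, of which it covered 85.7%. Over all 13227 pairs in which each peak had a single partner, the knockout peak lay inside a wider control peak in 36%. Among the members' 13 such pairs it did so in 4. Rbm20 peaks covered 1799 exonic bases in the knockout list and 2277 in the control list, with 1619 bases in both. A knockout-only peak lay 136323 bases upstream of the other knockout peaks, at 53665857 to 53666006, with a fold of 2.17 and a log10 q of -3.98.

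Rbm24 (ENSMUSG00000038132, chromosome 13, plus strand) had 1 peak, with the same 2 blocks in both lists, at 46571940 to 46573638. The blocks were 735 and 71 bases long, 893 bases apart. The fold was 7.33 in the Wtap-CKO list (log10 q -220) and 6.58 in the Wtapflox/flox list (log10 q -151). It had the smallest q of all knockout peaks of the group, and 98.3% of the knockout list and 96.5% of the control list had a larger q than this peak.

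Rbfox2 (ENSMUSG00000033565, chromosome 15, minus strand) had 3 peaks in the Wtap-CKO list and 2 in the Wtapflox/flox list. The upstream peak at 77190576 to 77191114 was identical in both lists, with a fold of 45 in the knockout (log10 q -24) and 17.8 in the control (log10 q -25.3). These were the largest folds of the group in either list. The knockout fold exceeded that of 98.5% of knockout peaks, and the control fold that of 88.5% of control peaks. The next knockout peak, at 77037799 to 77087587, had 2 blocks of 214 and 26 bases that are 49549 bases apart, with a fold of 11.8 (log10 q -25.2). Its control partner, at 77037859 to 77038008, lay inside the longer block, with a fold of 5.01 (log10 q -3.1). The knockout-only peak at 76964926 to 76965075 was the most downstream and had a fold of 2.93 (log10 q -7.22).

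Rbfox1, the paralog that is high in neurons and in striated muscle, had no peak in either list. The lists give no transcript levels, so whether the transcript was present was not analysed here.

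The muscleblind-like genes differed in where a peak was listed in 1 genotype only. Mbnl1 (ENSMUSG00000027763, chromosome 3, plus strand), which encodes the main muscleblind protein of muscle, shared 1 peak. It lay at 60536301 to 60536751 in the Wtap-CKO list (fold 2.57, log10 q -16.9) and at 60536391 to 60536781 in the Wtapflox/flox list (fold 2.48, log10 q -13.4). A knockout-only peak of 2 blocks lay upstream, at 60408630 to 60435604, with a fold of 10.3 and a log10 q of -3.47. Its fold was thus higher and its q larger than those of the shared Mbnl1 peak in the same list.

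Mbnl2 (ENSMUSG00000022139, chromosome 14, plus strand) had 2 knockout peaks, both shared, and 3 control peaks. The upstream peak, of 2 blocks at 120513111 to 120535119, was identical in both lists, with a fold of 4.6 in the knockout (log10 q -32.2) and 3.68 in the control (log10 q -18.1). The next knockout peak, at 120543951 to 120562712, had a fold of 4.79 (log10 q -68.5), and its control partner, at 120543951 to 120562772, had a fold of 5.82 (log10 q -134). Both began with the same block of 3 bases, 18252 bases before the next block, and the control peak reached further downstream. The control-only peak at 120666831 to 120666980 was the most downstream, with a fold of 1.89 and a log10 q of -9.19. In the control list, 2.94% of peaks had a lower fold than this one.

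Celf1 (ENSMUSG00000005506, chromosome 2, plus strand), whose protein binds GU-rich RNA and promotes fetal splicing patterns in the heart, had 3 peaks in each list, all shared. The upstream peak, of 3 blocks at 90770817 to 90795453, was identical in both lists, with a fold of 12.2 in the Wtap-CKO list (log10 q -46.8) and 13.2 in the Wtapflox/flox list (log10 q -32.3). The small middle peak had a fold of 2.11 at 90848045 to 90848195 in the knockout (log10 q -9.09) and 1.59 at 90848105 to 90848225 in the control (log10 q -4.08). The downstream peak had a fold of 5.27 at 90848464 to 90848884 in the knockout (log10 q -160) and 5.31 at 90848494 to 90848974 in the control (log10 q -156). Unlike at Rbm20, the order of the Celf1 folds was the same in both lists, and 268 bases separated the middle and downstream peaks in each.

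Celf2 (ENSMUSG00000002107, chromosome 2, minus strand), the paralog with a similar binding preference, had a single peak, in the Wtap-CKO list. It had 2 blocks of 147 and 4 bases between 6877262 and 6889181, a fold of 7.03 and a log10 q of -2.02. Of all knockout peaks, 3.99% had a larger q, so it stood near the authors' threshold of 0.05. No Celf2 peak was in the Wtapflox/flox list.

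Qk (ENSMUSG00000062078, chromosome 17, minus strand), which encodes quaking, a KH-domain protein of muscle and myelin splicing, had 1 knockout peak and 3 control peaks. The knockout peak at 10537704 to 10538573 was 870 bases long, with a fold of 18.2 (log10 q -121). It overlapped 2 control peaks, at 10537704 to 10538333 (fold 7.86, log10 q -66.3) and at 10538453 to 10538603 (fold 10.4, log10 q -2.14), which were 119 bases apart. The count of peaks at this place thus differs between the lists although most of the stretch is covered in both, with 751 bases in common. The 119 bases between the 2 control peaks were covered in the knockout list only. The remaining control peak, at 10428156 to 10428306 and 109397 bases further downstream, had no counterpart and a fold of 1.67 (log10 q -4.98).

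**Figure D4:**
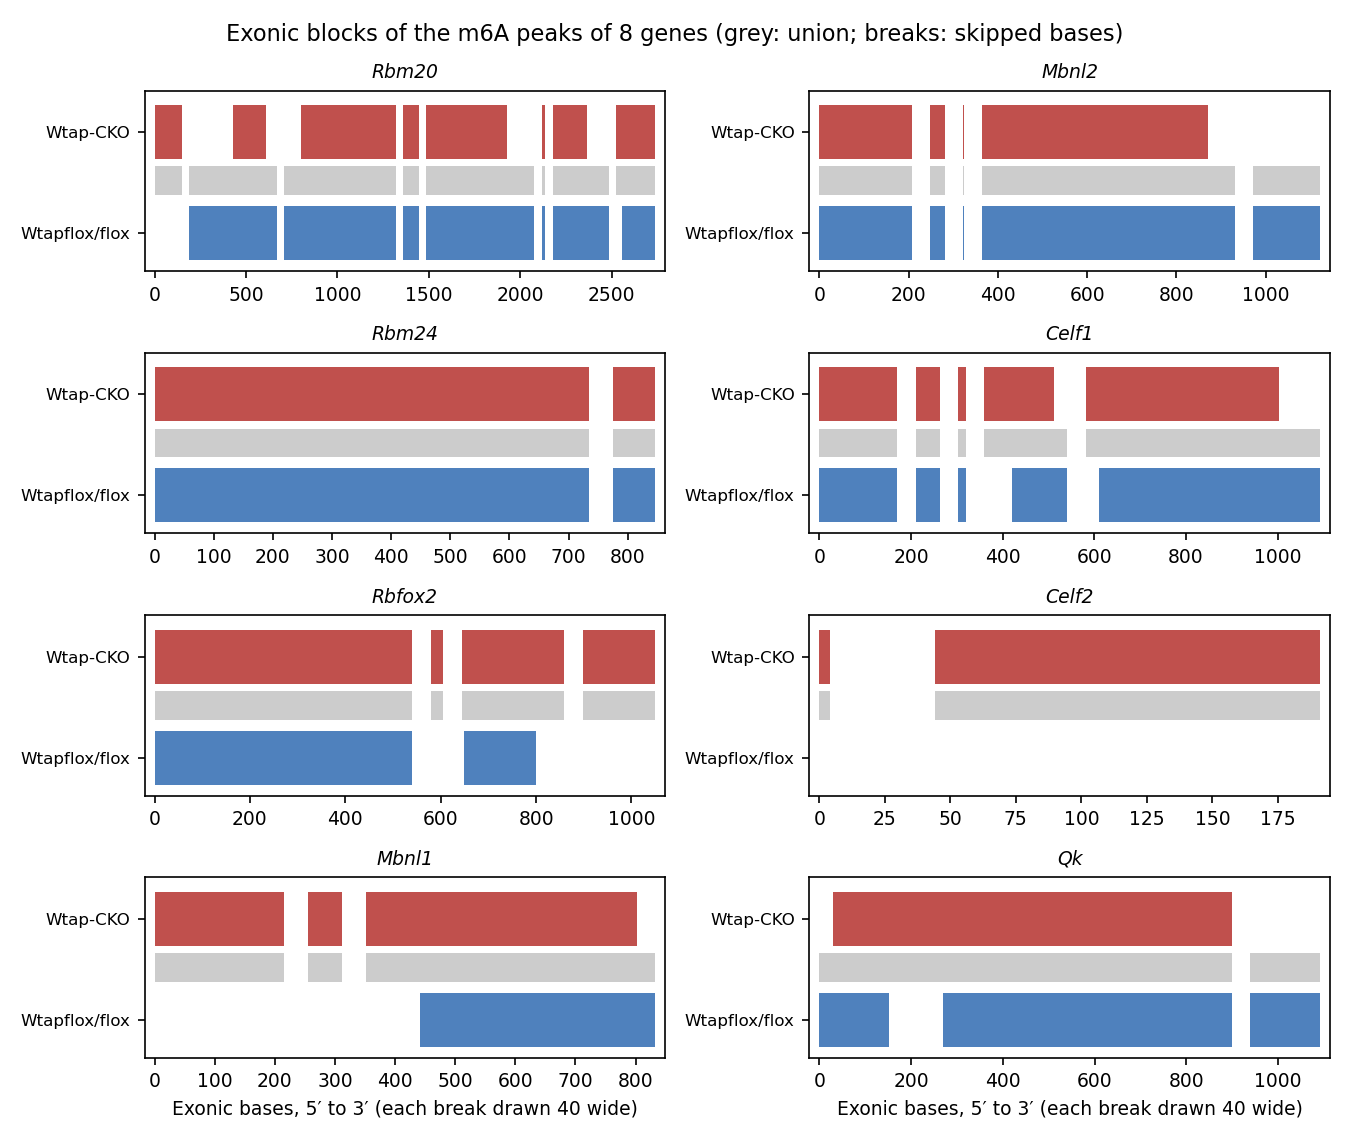
Exonic blocks of the peaks of the 8 genes with a peak, with the Wtap-CKO list in red above and the Wtapflox/flox list in blue below. The x axis gives exonic bases from 5′ to 3′ over the union of both lists (grey), with introns and uncovered stretches reduced to breaks drawn 40 wide. Rbm24 shows the same 2 blocks in both lists, Celf2 has no control block, and the Qk knockout block of 870 bases overlaps 2 control blocks.

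Some features were common to several of these genes. Of the 15 overlapping pairs of a knockout and a control peak, 4 had identical blocks, in Rbm24, Rbfox2, Mbnl2 and Celf1, against 7.62% of all 17453 such pairs. In the Wtap-CKO list 9 of 18 peaks ran over 2 or more exonic blocks, against 23.3% of all knockout peaks, and in the Wtapflox/flox list it was 6 of 17, against 21.2% of all control peaks. Of the 13 pairs in which each peak had a single partner, the knockout peak was the narrower in 5, the wider in 4 and of equal width in 4. Over all 13227 such pairs it was the narrower in 43.8% and the wider in 42.2%. No peak of another gene, on either strand, overlapped a peak of these genes in the same list. The median fold was 5.03 in the knockout list and 5.82 in the control list, against 7.03 over all knockout peaks and 7.22 over all control peaks.

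Members differed in how many other genes had the same numbers of peaks and of shared peaks in each list. Of all genes with a peak, 2833 others (23.3%) had the same counts as Rbm24, which was 1 shared peak in each list, and 1257 others (10.3%) had the same counts as Celf2. The counts of Mbnl1 were found in 795 other genes (6.53%), those of Celf1 in 363 (2.98%), those of Rbfox2 in 355 (2.91%) and those of Mbnl2 in 270 (2.22%). Rbm20 had the same counts as 39 others (0.32%), with Cald1, a caldesmon gene, as the one in the lists of splicing genes and targets. Qk had the same counts as 11 others (0.0903%), none of them in those lists.

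Close relatives of the members were mostly without peaks. Of 8 paralogs, Rbfox3, Mbnl3, Celf3, Celf5 and Celf6 had none in either list. Matr3, which encodes the nuclear matrix protein matrin 3, had 2 shared peaks in each list. The upstream peak had a fold of 2.02 in the Wtap-CKO list (log10 q -10.7) and 3 in the Wtapflox/flox list (log10 q -54.9), and the downstream peak had 1.67 (log10 q -8.73) and 1.59 (log10 q -9.24). Rbm38, the paralog of Rbm24, had a single peak, in the control list, with a fold of 2.81 and a log10 q of -55.3 (chromosome 2, 172875750 to 172876049). Celf4 had a knockout-only peak with a fold of 20.6 and a log10 q of -4.59. Of all genes with a peak, 11.9% were in the knockout list only and 10.5% in the control list only.

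Among 36 genes taken as known or reported splicing targets of these proteins in heart or other muscle, 32 had peaks in both lists. Another 2 had peaks in the knockout list only and 2 in neither, with no gene in the control list only. Of all genes with a peak, 77.6% were in both lists, 11.9% in the knockout list only and 10.5% in the control list only. The 36 genes held 100 peaks in the Wtap-CKO list, of which 18 (18%) had no control counterpart. In the Wtapflox/flox list they held 139, of which 60 (43.2%) had no knockout counterpart. Without Ttn, the titin gene, which had 4 knockout and 21 control peaks, the counts were 18 of 96 (18.8%) in the knockout list and 43 of 118 (36.4%) in the control list. Over all genes these shares were 24.5% of knockout peaks and 23.9% of control peaks. The target list was chosen with earlier results of these data known, and its difference from all genes was not tested. Ryr2, the cardiac calcium release channel gene, had 2 knockout and 6 control peaks, and Mapt, the tau gene, had 1 and 5. In the other direction, Nfix, a transcription factor gene and a known muscleblind target, had 6 knockout and 4 control peaks, Bin1, which shapes T-tubules, had 2 and 1, and Cald1 had 5 and 4. Mef2d, which encodes a muscle transcription factor (fold 4.96, log10 q -12.8), and Pdlim5, which encodes a Z-disc protein (fold 5.16, log10 q -23.7), had a peak in the knockout list only.

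Of 17 genes for other splicing regulators of the heart, 12 were listed in both genotypes, 1 in the control alone, 4 in neither and none in the knockout alone. They held 22 peaks in each list, of which 4 in each (18.2%) had no counterpart, beside 24.5% of all knockout peaks and 23.9% of all control peaks. Fxr2, a relative of the fragile X protein gene, had 4 knockout and 3 control peaks, Hnrnpu had 3 and 3, and the SR protein kinase genes Srpk1 and Srpk3 each had 2 and 3. Ptbp1, which encodes the polypyrimidine tract-binding protein, and Srpk2 each had 2 and 1. Ptbp2, its neuronal paralog, had a control-only peak (fold 14.4, log10 q -2.86).

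The targeted gene Wtap itself had 4 peaks in the Wtap-CKO list and 3 in the Wtapflox/flox list. A peak is no transcript level, so this does not check the deletion. All 6 cardiomyocyte markers had peaks in both lists, with 20 peaks in the knockout list, none of them without a counterpart, and 42 in the control list, of which 21 were without (24.5% and 23.9% over all peaks). All of these 21 lay in Ttn and Ryr2, and every peak of Myh6, Tnnt2, Actn2 and Nppa had a counterpart. Ttn, Ryr2 and Tnnt2 also belong to the list of splicing targets. These 21 peaks are therefore among the 60 control peaks of the targets without a counterpart, and the 2 lists are not independent. All 5 fibroblast markers had peaks in both lists, with 16 knockout peaks, 7 of them without a counterpart, and 10 control peaks, 1 of them without. The 4 endothelial markers had 9 knockout peaks, 4 of them without a counterpart, and 7 control peaks, 1 of them without. The 4 smooth muscle and pericyte markers had 11 knockout peaks, 4 of them without, and 9 control peaks, none of them without. Of the 3 immune markers Csf1r alone had peaks, 2 in each list, of which 1 in each had no counterpart. Of the 3 neuronal markers Tubb3 alone had peaks, 2 in the knockout list, both without a counterpart. The skeletal muscle markers Myh1, Myh4 and Ckm had no peaks. These counts differ between the lists in the same libraries as the counts of the splicing regulators, and their part in those counts was not tested.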

How the data were processed

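RNA pooled per genotype was immunoprecipitated and sequenced beside its input as 4 libraries, with 1 IP and 1 input library per genotype. The authors called peaks per genotype with exomePeak 2.16.0, with the input as background and q limited to 0.05, per the series' design text. The submitters' processing notes give GRCm39 as the genome build. HOMER 4.9.1, BWA 0.7.12 and fastp 0.19.11 stand there with no role given. The deposited fold of a peak is a ratio of IP to input on a linear scale. Their deposited log10 p and log10 q were treated as a score because some are minus infinity, and the deposited p-value column repeats the former. The lists hold no read counts, so depth is unknown and no correction for depth was made.

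Rows were taken by gene name and exonic blocks intersected on the same strand (Python 3.11.15, numpy 2.4.6, pandas 2.3.3, scipy 1.17.1, with figures by matplotlib 3.10.9). The code of the overlap step was checked on simulated lists with known answers, made from the control list, and on hand-made cases. Shares have exact Clopper-Pearson 95% intervals. Counts over all peaks stand beside those of the members, and folds were ranked only within a list. Named genes were the members, all paralogs with a peak and, of the target and regulator lists, the 3 with most peaks, those in 1 list only and the 3 with the largest difference in each direction, ties by symbol; values of some target genes that this rule names are not reported here. Members and lists were chosen with earlier results of these data known. Alternatives limited q to 0.01 or 0.001 or the fold to 2 or 4 and above, asked for an overlap of 50% (shorter peak, or both), or used no strand, whole spans, lists of equal length and merged peaks. No sequence of a peak is shown, since a genome of GRCm39 was not used here.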

Additional observations from a re-analysis of the deposited data

How the results depend on the processing

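The number of the 9 genes with a peak in both lists was 7 of 8 with a peak at the main setting (77.6% over all genes). It stayed at 7 under 9 of the 10 alternatives that changed 1 setting each, where it was 7 of 7 at q at or under 0.001 (76.6%). With folds of at least 4 it was 6 of 8 (68.6% over all genes). The count of knockout peaks without a control counterpart was 4 of 18 (24.5% over all peaks). Under these alternatives it was lowest at 3, of 11 peaks with folds of at least 4 (31.7% over all) and of 17 at q at or under 0.001 (22.2%). It was highest at 6, of 17 peaks with folds of at least 2 (25.3%), the setting at which the members' share stood above that over all peaks. That filter removed the overlapping control partners of an Rbm20 peak (folds 2.47 in the knockout and 1.91 in the control) and a Celf1 peak (2.11 and 1.59). The count of control peaks without a knockout counterpart was 2 of 17 (23.9% over all peaks). It was 1 of 13 with folds of at least 2 (24.8%) and 4 of 17 with an overlap of 50% of both peaks (38.5%), where by construction narrower peaks inside wide ones no longer count as shared, and it was 2 under the other 8. At q at or under 1e-10, added after the data were seen, both counts were 0 of 12 (4.04% of knockout and 8.72% of control peaks over all). Both were fixed at 0 by a limit beyond every unmatched member peak. No paired analysis was possible because each genotype had 1 IP and 1 input library. Depth was unknown, and with 17 or 18 peaks a share is known only to within the wide intervals given.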
